A study of Rattus norvegicus with 16 samples.

Results

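White blood cells of rats with a traumatic brain injury (TBI) were compared with those of sham-operated rats, transcript row by transcript row. A row of the white blood cell table was a member of the comparison when its quantification status was OK in all 8 libraries and its mean over them was at least 1 FPKM, and 13413 of 24779 rows were members. FPKM (fragments per kilobase of transcript per unit of library size) is a level scaled to transcript length and sequencing depth. Of these rows, 9011 carried a single gene symbol (8645 different symbols), 4181 had no gene name and 221 named several genes. A further 11333 rows had an OK status but a mean below 1 FPKM, and 15 rows above that mean were left out for their status.

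The animals were male Sprague-Dawley rats of 200 to 240 g, an outbred laboratory strain, with no transgene or drug named for either group. The TBI group had a fluid percussion injury, in which a pulse of fluid pressure strikes the exposed dura, and the sham group had sham surgery. Learning was tested 1 week after surgery, the rats were decapitated, and cells isolated from blood were frozen. Poly-A RNA from about 1000 ng of total RNA was sequenced from 4 sham and 4 TBI libraries of white blood cells. The labels number the libraries of each group without naming the animals, so a p-value here reflects the spread among 8 libraries, which may be partly technical. Both groups had been through surgery and learning tests, and no unoperated group was analysed here.

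A white blood cell preparation is mixed: granulocytes, monocytes and lymphocytes with their own marker genes, and the reticulocytes, platelets and red cells that the isolation leaves behind. Reticulocytes are young red cells that have lost their nucleus and still carry messenger RNA for globin, heme synthesis and membrane proteins, and platelets carry RNA inherited from megakaryocytes. A level in such a mixture depends on how many cells of each type are present as well as on the RNA each of them holds. In these bulk libraries fewer cells of a type and less RNA per cell cannot be told apart.

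One TBI library stood apart. TBI 1 had the lowest FPKM summed over all rows, 482286, where the other TBI libraries had 612627 to 832725 and the sham libraries 727296 to 828289. Across the tested rows on the log2 scale its Pearson correlation with the other TBI libraries was 0.938 to 0.944, and with the sham libraries it was 0.910 to 0.929. Among the other 7 libraries every pair lay between 0.941 and 0.968. Medians of gene lists are therefore given with and without TBI 1, in the text or in the plot of list medians. Summed over rows with 1 symbol and status OK, FPKM was 375289 to 425314 in sham and 256919 to 354647 in TBI. Every TBI library lay below every sham library in this total, and the sums given for gene lists were not scaled to it. The number of rows with a value above 0 also separated the groups, at 18631 to 18993 in sham and 19243 to 19346 in TBI, and so did the relative depth estimated from the steps between low values, at 0.798 to 1.09 in sham and 1.17 to 1.77 in TBI, highest in TBI 1. That estimate rests on the most frequent ratio to sham 1 and is coarse. The part of these totals, row numbers and depths in the results was not tested. The defining markers of leukocytes were present in every library, with summed levels of 2019.9 to 2651 FPKM (sham) and 1487 to 2877 FPKM (TBI) for the 26 neutrophil genes and 1969 to 2512 and 1934 to 2859.5 FPKM for the 31 T cell genes.

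No row passed an adjusted p of 0.05 in limma (0 of 13413, or 0%), the smallest adjusted p being 0.0878. Differences are TBI minus sham on the scale of log2(FPKM + 0.5), which understates the change of low rows, and are given ± SE. At an unadjusted limma p under 0.05, called the nominal threshold below, 1678 rows (12.5%) were lower in TBI and 1049 (7.82%) higher. The 4 TBI values all lay below the 4 sham values in 1158 rows (8.63%) and all above them in 753 (5.61%). These shares are the background for the counts of gene lists, but the nominal shares changed with level, as given below. Over all rows the groups were balanced, with 6766 lower, 6647 higher and a median difference of -0.003. The split of the nominal rows depended on the scaling: after quantile normalization, which gives all libraries the same distribution, 1172 were lower and 1521 higher. Of the rows with separated groups, 688 were then lower and 1137 higher. In what follows a signed value in parentheses after a level is this log2 difference, from 4 libraries in each group, and a gene named without an adjusted p had one of 0.127 or more in limma.

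Difference and level went together. Among genes with a mean of 1 to 2 FPKM the median difference was 0.08, among those of 20 to 50 FPKM it was -0.05, among those of 50 to 100 FPKM -0.15, and among the 530 genes of 100 to 1000 FPKM -0.33, where 87.9% were lower in TBI. The 36 genes above 1000 FPKM had a median of -0.70, and 97.2% of them were lower. Without TBI 1 the medians of these top ranges were -0.25 and -0.43, and after quantile normalization they were 0.01 and -0.23. The nominally lower share rose from 5.26% at 1 to 2 FPKM to 31.1% at 50 to 100 and 47.5% at 100 to 1000 FPKM. The nominally higher share was 10.2% at 2 to 5 FPKM and 2.08% at 100 to 1000 FPKM. A count for a list of abundant genes has to be read against the share of its level. Several of the most abundant genes are red cell or platelet transcripts, which are described next.

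**Figure D1:**
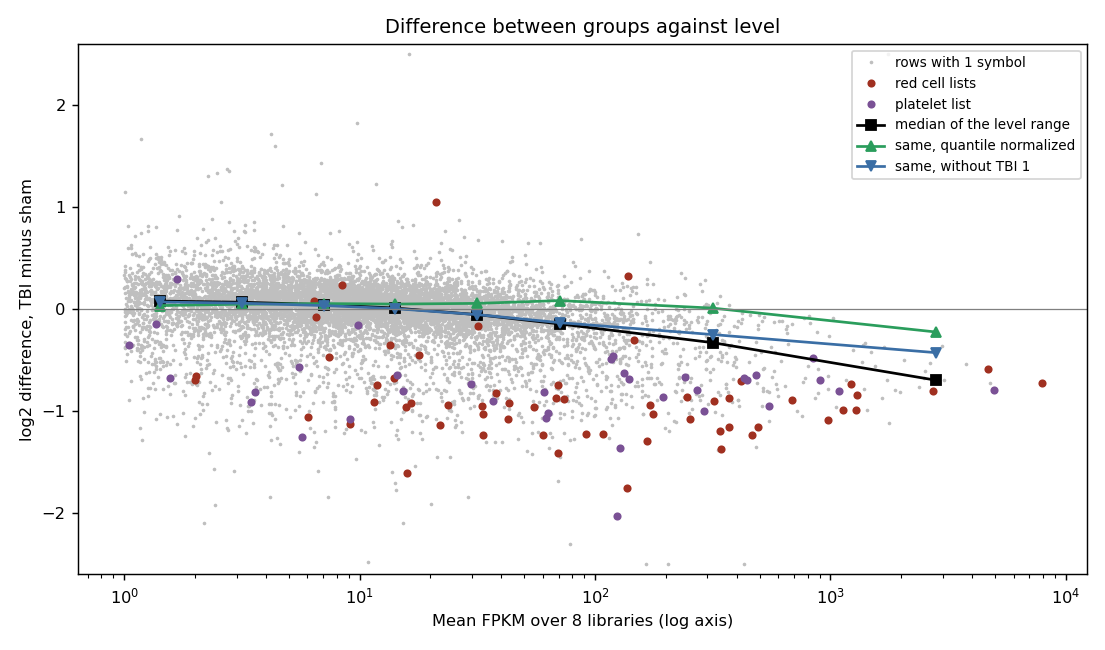
Log2 difference between TBI and sham (vertical axis) against mean FPKM over the 8 libraries (log axis) for rows with 1 gene symbol, with differences beyond 2.5 drawn at 2.5; genes of the red cell and platelet lists are coloured and lines join the medians of level ranges. The median falls from 0.08 at 1 to 2 FPKM to -0.70 above 1000 FPKM, and quantile normalization brings the latter to -0.23.

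Red cell transcripts were lower in TBI. Of 60 tested genes in 4 red cell lists (globins, heme synthesis, membrane and skeleton, and erythroid factors with reticulocyte maturation), 56 were lower and 4 higher, with a median difference of -0.91 where all rows had -0.003. The nominal threshold was reached by 45 of them lower (75%) and 2 higher, against background shares of 12.5 and 7.82%. Among all genes of 100 to 1000 FPKM, 47.5% were nominally lower and the median was -0.33. Above 1000 FPKM these values were 44.4% and -0.70. The groups did not overlap in 39 red cell genes lower (65%) and 2 higher, against 8.63 and 5.61% of all rows. Summed over the lists the level was 28839, 40842, 36018 and 32774 FPKM in sham 1 to 4 and 11946, 23384, 26160.0 and 20622 FPKM in TBI 1 to 4. All 4 TBI sums lay below the lowest sham sum, and TBI 1 was the lowest. Without TBI 1 the median difference was -0.64, with 42 genes still nominally lower, and after quantile normalization it was -0.68. These genes were not tested as a set, and no member passed after adjustment (smallest limma adjusted p = 0.127). Of 67 listed genes the others lay below 1 FPKM (6 genes), had a status other than OK (4 genes) or both. The 2 tested globins were both lower, neither nominally. Their median was -0.53, -0.17 without TBI 1, when 1 of them was lower, and -0.34 after quantile normalization. Hba1, Hba2 and LOC689064, all globin genes, were listed at 0 in every library, which can be a failed estimate. A further globin row with a status other than OK was listed at 0 in all 4 sham libraries and at 2496, 3910, 5222 and 3755 FPKM in TBI 1 to 4, opposite in direction to the tested genes, and was left out by its status.

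Heme is built in a chain of enzymes that starts and ends in the mitochondrion. Of 14 genes for this chain and its carriers, 13 were lower, 9 of them nominally, with a median of -0.88 (-0.65 without TBI 1). Alas2, the erythroid enzyme that opens the chain, stood at 6999.5, 12172, 9962 and 9624 FPKM in sham 1 to 4 and 3201, 6939.9, 7948 and 6231 FPKM in TBI 1 to 4. It was the most abundant gene of the list, its groups overlapped through sham 1, and the log2 difference of -0.72 ± 0.42 had a limma adjusted p of 0.370. Fech, which puts the iron into the ring, was at 825, 978, 960.3 and 780.3 FPKM in sham 1 to 4 and 279, 575, 569.9 and 550.2 FPKM in TBI 1 to 4. TBI 1 stood well below the other TBI libraries, and the groups did not overlap (-0.90 ± 0.25, limma adjusted p = 0.142). The smallest p of the list belonged to Ppox, the oxidase before Fech, at 21.8, 21.5, 17.1 and 23.3 FPKM in sham 1 to 4 and 9.86, 12.7, 12.6 and 7.52 FPKM in TBI 1 to 4 (-0.96 ± 0.17). Slc25a38, a mitochondrial glycine carrier, was at 88.1 ± 8.67 FPKM (SD, n = 4) across sham and 48.7 ± 11.4 across TBI libraries (-0.87 ± 0.16). Both had separated groups and a limma adjusted p of 0.127, which 166 gene rows shared.

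Of 18 genes for the red cell membrane and its skeleton, 17 were lower (15 nominally) and 1 higher, with a median of -0.94 and of -0.63 without TBI 1. The anion exchanger Slc4a1 (band 3) stood at 1533, 1841, 2031 and 1382 FPKM in sham 1 to 4 and 518, 1093, 1031 and 872 FPKM in TBI 1 to 4, every TBI value below every sham value (-0.99 ± 0.27). The Rhesus protein Rhd was at 635, 774, 637 and 622 FPKM in sham 1 to 4 and 169, 429.7, 435 and 248 FPKM in TBI 1 to 4. TBI 1 was again lowest and the groups were apart (-1.16 ± 0.30, limma adjusted p = 0.135). The water channel Aqp1 was at 606, 624, 722 and 599 FPKM in sham 1 to 4 and 157, 407, 358 and 234 FPKM in TBI 1 to 4 (-1.23 ± 0.28, limma adjusted p = 0.127). These transcripts together carried 4337 to 5637 FPKM in sham and 1454 to 3347 in TBI.

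The exception was Slc14a1, the urea transporter that carries the Kidd blood group. Its level was 10.5, 16.6, 19.1 and 9.40 FPKM in sham 1 to 4 and 28.2, 27.99, 29.1 and 27.3 FPKM in TBI 1 to 4. The TBI libraries lay close together and all above the sham libraries, of which 2 and 3 were higher than 1 and 4. The log2 difference was 1.05 ± 0.21 (limma adjusted p = 0.127), and it ran from 0.89 to 1.22 when each library in turn was left out. Of the 18 membrane genes it was the single one that was higher, and TBI 1, the lowest library for the other members named, stood at the same level as TBI 2 to 4.

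The list of erythroid transcription factors and reticulocyte genes had 24 of 26 genes lower, 21 of them nominally, and 2 higher, with a median of -0.92 (-0.71 without TBI 1). Bpgm, which makes the 2,3-bisphosphoglycerate that loosens oxygen from hemoglobin, stood at 3420.1 ± 705 FPKM (SD, n = 4) across sham and 2011 ± 597 across TBI libraries (-0.80 ± 0.31). The ubiquitin ligase Mkrn1 was at 1641 ± 218 FPKM across sham and 947 ± 275 across TBI libraries (-0.84 ± 0.26). The survival gene Bcl2l1, which encodes Bcl-xL, stood at 206, 306, 237 and 195 FPKM in sham 1 to 4 and 66.0, 130.02, 114 and 81.2 FPKM in TBI 1 to 4. All TBI values were below the lowest sham value of 195 FPKM (-1.29 ± 0.23, limma adjusted p = 0.127). The kinase Dyrk3, expressed in late erythroid cells, was at 23.5, 28.1, 25.4 and 17.8 FPKM in sham 1 to 4 and 4.12, 11.5, 10.4 and 5.77 FPKM in TBI 1 to 4 (-1.61 ± 0.31). Xpo7, a nuclear exporter abundant in maturing red cells, was at 182, 211, 224 and 187 FPKM in sham 1 to 4 and 58.5, 112, 105 and 17.3 FPKM in TBI 1 to 4. Here TBI 4 rather than TBI 1 was the lowest (-1.76 ± 0.53, limma adjusted p = 0.146). Slc6a9, a glycine transporter from the list of amino acid transporters, was also lowest in TBI 4, at 18.9, 24.0, 21.9 and 19.4 FPKM in sham 1 to 4 and 4.43, 10.4, 11.5 and 2.36 FPKM in TBI 1 to 4 (-1.71 ± 0.43).

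GATA factors bind the letters AGATAA in regulatory DNA of red cell and megakaryocyte genes, and the 250 bases before the RefSeq start sites were searched for these letters and their reverse complement TTATCT. RefSeq windows (rat build GRCr8, a later build than the rn5 of the data) were found for 41 of the 60 tested red cell genes, and 10 of their 45 windows (22.2%) held the motif. It occurred in 10.3% of all 33469 windows and in 5.85% of the windows of tested symbols. By list, 6 of 24 platelet windows (25%) and 3 of 17 neutrophil windows (17.6%) held it. For T cell genes it was 1 of 21 windows (4.76%) and for B cell genes 1 of 16 (6.25%). For each of the heme, membrane and erythroid lists the match with the smallest p is shown with the motif in capitals, as an illustration. The part of the motif in the differences was not tested. Trim58, a ubiquitin ligase of maturing reticulocytes, was taken for its window and lies outside the rule for named genes. Its level was 62.5, 137, 78.7 and 63.5 FPKM in sham 1 to 4 and 24.9, 42.3, 46.2 and 27.2 FPKM in TBI 1 to 4 (-1.24 ± 0.30). A match is a string of letters and no evidence of binding.
Fech, chr18:60248526-60248775, minus strand: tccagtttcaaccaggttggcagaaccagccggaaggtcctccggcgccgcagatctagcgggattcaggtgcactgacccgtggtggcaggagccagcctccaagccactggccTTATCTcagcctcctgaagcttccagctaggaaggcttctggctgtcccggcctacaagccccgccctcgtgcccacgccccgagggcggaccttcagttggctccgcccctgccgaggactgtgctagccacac
Rhd, chr5:152370950-152371199, plus strand: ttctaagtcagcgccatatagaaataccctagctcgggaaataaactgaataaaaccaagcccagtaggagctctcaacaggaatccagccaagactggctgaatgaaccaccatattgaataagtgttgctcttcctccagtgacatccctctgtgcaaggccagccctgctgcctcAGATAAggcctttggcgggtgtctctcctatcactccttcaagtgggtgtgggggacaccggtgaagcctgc
Trim58, chr10:43523154-43523403, plus strand: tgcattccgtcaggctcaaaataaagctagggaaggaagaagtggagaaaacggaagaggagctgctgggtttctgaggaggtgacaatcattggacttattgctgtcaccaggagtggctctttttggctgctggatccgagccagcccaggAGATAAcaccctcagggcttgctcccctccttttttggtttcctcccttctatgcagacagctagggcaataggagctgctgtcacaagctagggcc

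Platelet genes were lower too. Of 35 tested platelet and megakaryocyte genes 34 were lower and 1 higher, 19 of them nominally lower and none nominally higher, and the groups did not overlap in 18. The nominally lower share was 54.3%, against 12.5% of all rows and 47.5% of genes of 100 to 1000 FPKM. Separated groups made up 51.4%, against 8.63% of all rows. The median difference was -0.74, -0.46 without TBI 1 and -0.51 after quantile normalization. The summed level was 14535, 16947, 12773 and 13500.4 FPKM in sham 1 to 4 and 4183, 9126, 11794 and 11180.4 FPKM in TBI 1 to 4, with TBI 1 far below the other 3. Gng11 of this list was listed at 0 in every library.

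Platelet factor 4, Pf4, stood at 6099, 7300.3, 5304 and 5757 FPKM in sham 1 to 4 and 1749.7, 3877, 5051 and 4358 FPKM in TBI 1 to 4. The highest TBI value was below the lowest sham value (-0.80 ± 0.39, limma adjusted p = 0.288). Ppbp, the precursor of the platelet chemokine NAP-2, differed more, at 174, 209, 181 and 200.4 FPKM in sham 1 to 4 and 21.1, 57.2, 117 and 32.5 FPKM in TBI 1 to 4. Its TBI values spread widely and still lay below all sham values (-2.03 ± 0.45, limma adjusted p = 0.127). Among surface receptors, the glycoprotein Gp5 was at 5.11, 5.47, 3.46 and 4.49 FPKM in sham 1 to 4 and 1.45, 2.35, 2.99 and 2.24 FPKM in TBI 1 to 4 (-0.91 ± 0.20). The thrombin receptor F2rl3 was at 19.5 ± 1.54 FPKM (SD, n = 4) across sham and 11.1 ± 2.42 across TBI libraries (-0.81 ± 0.16). Both had separated groups. Itgb3, the beta chain of the fibrinogen receptor, was at 424, 661, 531 and 485 FPKM in sham 1 to 4 and 129, 379, 453 and 468 FPKM in TBI 1 to 4. Its groups overlapped, and without TBI 1 its difference of -0.70 became -0.26. Myl9, a myosin light chain, also overlapped, at 1328 ± 179.7 FPKM across sham and 856 ± 413 across TBI libraries (-0.80 ± 0.41).

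**Figure D2:**
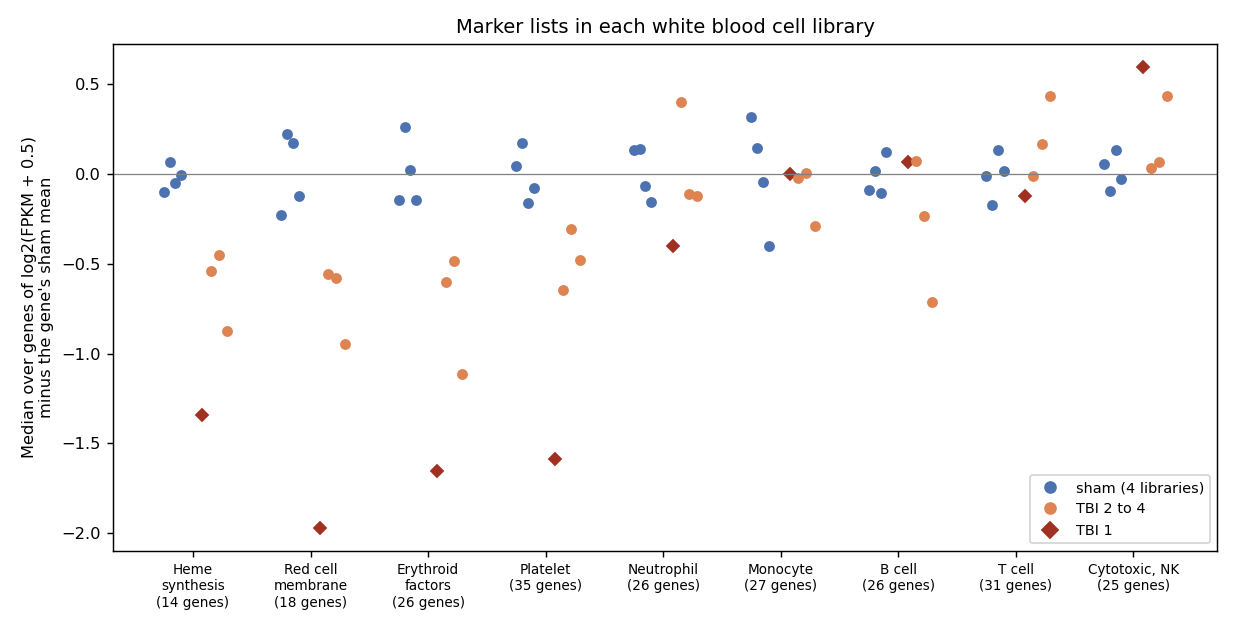
Each point is a library, placed at the median over a list's tested genes of log2(FPKM + 0.5) minus the gene's sham mean. All TBI libraries lie below all sham libraries for the 3 red cell lists and the platelet list, with TBI 1 lowest. The groups overlap for neutrophil, monocyte, B cell, T cell and cytotoxic genes.

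The neutrophil, monocyte, B cell and T cell lists did not separate the groups in their medians by library, nor did the cytotoxic list. Of 26 neutrophil genes 12 were higher and 14 lower, with a median of -0.09 (0.05 without TBI 1) and 1 nominal call, lower; without TBI 1 there was 1 nominal call, higher. With each library left out that median ran from -0.19 to 0.05. The alarmins S100a8 and S100a9, calcium-binding proteins that fill the neutrophil cytosol, went together. S100a9 was at 513, 616, 398 and 513 FPKM in sham 1 to 4 and 209, 742, 278 and 355 FPKM in TBI 1 to 4, so TBI 2 was the highest library of all and TBI 1 the lowest (-0.52 ± 0.36, limma adjusted p = 0.456). S100a8 had the same order among the TBI libraries, at 375, 413, 245 and 319.6 FPKM in sham 1 to 4 and 144, 442, 179.7 and 263 FPKM in TBI 1 to 4 (-0.50 ± 0.34). Cd177 and Ctsg of this list were at 0 throughout, and 11 of its 37 genes lay below 1 FPKM.

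Of 27 monocyte genes 12 were higher and 15 lower, with a median of -0.07 (-0.11 without TBI 1, and from -0.19 to 0.02 with each library left out) and no nominal call. The receptor for colony stimulating factor, Csf1r, stood at 44.7 ± 11.5 FPKM (SD, n = 4) across sham and 39.8 ± 5.39 across TBI libraries, overlapping (-0.14 ± 0.19). The protease inhibitor Cst3 was at 715 ± 133 FPKM across sham and 516 ± 149 across TBI libraries, also overlapping (-0.51 ± 0.25). After quantile normalization the neutrophil and monocyte medians were 0.05 and 0.08. The 27 monocyte genes summed to 1322 to 1890.3 FPKM in sham and 1177 to 1441 in TBI.

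Of 26 B cell genes 25 were lower, none nominally (2 without TBI 1), with a median of -0.20 (-0.28 without TBI 1) that quantile normalization brought to 0.01. Without TBI 4 it was -0.05. The B cell receptor chain Cd79b was at 331, 381, 366 and 445 FPKM in sham 1 to 4 and 361, 389.6, 297 and 210.0 FPKM in TBI 1 to 4, with TBI 4 lowest and TBI 1 and 2 inside the sham range (-0.31 ± 0.20). Fcrla, an Fc receptor-like protein of B cells, was likewise lowest in TBI 4, at 102, 97.0, 111 and 134 FPKM in sham 1 to 4 and 109, 102, 81.8 and 55.3 FPKM in TBI 1 to 4 (-0.38 ± 0.21). Of 31 T cell genes 24 were higher, 2 nominally (6.45% against the background of 7.82%), with a median of 0.09 (0.16 without TBI 1). Without TBI 1 the nominally higher T cell genes were 6, and without TBI 4 the median was -0.03. The T cell receptor component Cd3g was at 192, 209, 265 and 243 FPKM in sham 1 to 4 and 183, 237, 282 and 313 FPKM in TBI 1 to 4, overlapping (0.14 ± 0.18). The signalling adaptor Sh2d1a (0.36) and the interleukin-2 receptor chain Il2ra (0.28) were the T cell genes with the smallest p.

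Cytotoxic lymphocyte genes were the leukocyte list with the largest median, 0.27. Of 25 genes for natural killer and cytotoxic T cells 22 were higher and 3 lower, and 7 were nominally higher (28% against 7.82% of all rows), but the groups were apart in 1 gene. That gene was Gzmb, granzyme B, a protease that killer cells inject into their targets, at 3.69, 1.65, 1.96 and 2.92 FPKM in sham 1 to 4 and 5.04, 4.56, 4.26 and 4.36 FPKM in TBI 1 to 4 (0.77 ± 0.21, limma adjusted p = 0.138). Granzyme A, Gzma, stood at 43.1, 34.7, 36.9 and 30.1 FPKM in sham 1 to 4 and 54.6, 47.0, 40.5 and 66.9 FPKM in TBI 1 to 4, so TBI 3 fell inside the sham range (0.51 ± 0.17). The natural killer receptor Ncr1 was at 14.8, 13.4, 11.9 and 12.7 FPKM in sham 1 to 4 and 29.6, 14.4, 14.7 and 24.3 FPKM in TBI 1 to 4, high in TBI 1 and 4 and close to sham in TBI 2 and 3 (0.57 ± 0.23). Gzmk was also highest in TBI 1, at 107, 69.6, 114 and 106 FPKM in sham 1 to 4 and 191, 96.2, 89.1 and 132 FPKM in TBI 1 to 4 (0.31 ± 0.26). Without TBI 1 the list's median was 0.18 and 2 genes were nominally higher, and with it after quantile normalization the median was 0.43. Gzmc and Gzmf were listed at 0.

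Several other cell types were looked for. Of 8 tested brain genes 7 were higher, none nominally (2 without TBI 1). Their median of 0.38 was 0.06 without TBI 3 and 0.66 without TBI 1, and they summed to 119 to 156 FPKM in sham and 51.0 to 170.5 FPKM in TBI. Of 13 endothelial genes 4 exceeded 1 FPKM, all lower and none nominally. Plasma cell and dendritic cell lists had medians of -0.01 and -0.08 with no nominal call.

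Furin had the smallest p of any gene with a symbol that was lower in TBI. This protease cuts precursors of growth factors, receptors and viral envelope proteins in the secretory pathway. It stood at 111, 122, 119.9 and 120.0 FPKM in sham 1 to 4 and 56.9, 76.5, 68.1 and 61.6 FPKM in TBI 1 to 4. The sham libraries lay close together, and every TBI value was well below them. The log2 difference was -0.85 ± 0.10 (limma adjusted p = 0.127), -0.60 after quantile normalization and -0.93 to -0.79 when each library was left out. Without TBI 2 its limma adjusted p was 0.0460.

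Other genes with separated groups and the same limma adjusted p of 0.127 had varied functions. Retsat, which saturates a double bond of retinol, was at 34.9, 42.9, 34.5 and 38.2 FPKM in sham 1 to 4 and 21.7, 25.7, 21.2 and 22.4 FPKM in TBI 1 to 4, with TBI 1 among the other TBI libraries (-0.71 ± 0.10). Bap1, a nuclear deubiquitinase that acts on histone H2A and a tumour suppressor, was at 69.2, 73.4, 79.9 and 62.1 FPKM in sham 1 to 4 and 30.6, 45.3, 41.5 and 35.4 FPKM in TBI 1 to 4 (-0.90 ± 0.13). Wwtr1, the Hippo pathway coactivator also called TAZ, was at 4.94, 6.24, 4.501 and 3.60 FPKM in sham 1 to 4 and 1.40, 1.98, 1.80 and 1.89 FPKM in TBI 1 to 4 (-1.22 ± 0.17). Ifrd2, a ribosome-binding regulator of translation in maturing red cells, was at 125, 119, 104 and 112 FPKM in sham 1 to 4 and 46.0, 68.0, 59.1 and 67.3 FPKM in TBI 1 to 4 (-0.94 ± 0.13). In these genes TBI 1 was lowest except for Retsat, and all 4 TBI values lay below the sham values.

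Me1, the malic enzyme that yields NADPH in the cytosol, was at 85.2, 85.6, 62.6 and 67.0 FPKM in sham 1 to 4 and 22.4, 34.3, 42.1 and 31.7 FPKM in TBI 1 to 4 (-1.21 ± 0.19). St3gal5, which makes the ganglioside GM3, stood at 113 ± 6.69 FPKM (SD, n = 4) across sham and 73.9 ± 7.25 across TBI libraries (-0.61 ± 0.09). The RNA helicase Ddx28 was at 7.31 ± 0.633 FPKM across sham and 3.86 ± 0.564 across TBI libraries (-0.85 ± 0.12), and the kinase Vrk2 at 35.7 ± 8.37 FPKM across sham and 15.8 ± 2.42 across TBI libraries (-1.14 ± 0.18). The remaining genes of the 15 with the smallest p in this direction were Hexim2 (-0.86), Fez2 (-0.63), the autophagy protease Atg4d (-0.71), Ptov1 (-0.47), Prss35 and Slc7a5. Prss35, a serine protease-like protein, was at 3.64, 5.34, 2.90 and 4.48 FPKM in sham 1 to 4 and 0.520, 1.58, 0.384 and 0.564 FPKM in TBI 1 to 4, with TBI 2 above the other TBI libraries (-1.92 ± 0.29), and without TBI 2 its limma adjusted p was 0.0460. Spink8 (-2.10) and RGD1304810 (-1.68) were also among the 8 largest negative differences.

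**Figure D3:**
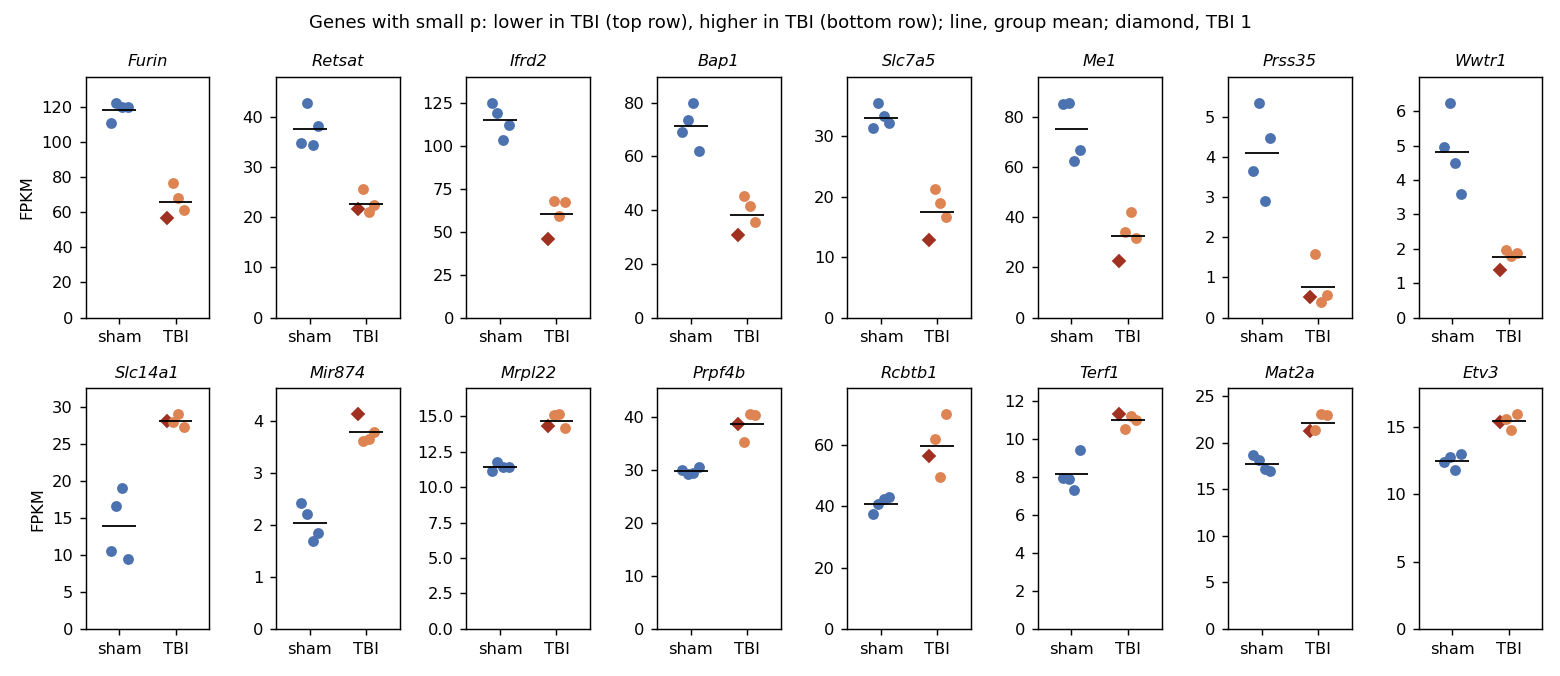
FPKM of 16 genes in the 4 sham and 4 TBI libraries, each panel with its own axis from 0, with lines at the group means and a diamond for TBI 1. In every panel the 4 TBI values lie on one side of the 4 sham values, and for Slc14a1 (27.3 to 29.1 FPKM in TBI) TBI 1 sits among the other TBI libraries.

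Several amino acid transporters were lower. Slc7a5 (LAT1) brings large neutral amino acids into the cell and works as a dimer with Slc3a2. Slc7a5 was at 31.3, 35.5, 33.3 and 32.1 FPKM in sham 1 to 4 and 12.9, 21.3, 19.0 and 16.6 FPKM in TBI 1 to 4 (-0.93 ± 0.14). Slc3a2 was at 210.2, 272, 207 and 166 FPKM in sham 1 to 4 and 67.7, 122.98, 131 and 104 FPKM in TBI 1 to 4 (-1.03 ± 0.23), lowest in TBI 1 as was Slc7a5. The glutamine carrier Slc1a5 was at 63.0 ± 4.83 FPKM (SD, n = 4) across sham and 31.2 ± 8.22 across TBI libraries (-1.04 ± 0.18). A second carrier of glutamine, Slc38a5, was at 157 ± 22.3 FPKM across sham and 85.5 ± 31.0 across TBI libraries (-0.96 ± 0.30). All 4 had separated groups. Of 19 amino acid transporters tested, 8 were lower, 7 of these nominally (36.8% of the list against 12.5% of all rows). The others, 11, were higher, 1 nominally, so the list's median was 0.03 (-0.04 without TBI 1). A further 19 lay below 1 FPKM.

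Genes for iron and for defence against peroxides were mostly lower. Of 15 iron and heme breakdown genes 12 were lower (5 nominally) and 3 higher (1 nominally), with a median of -0.39 (-0.28 without TBI 1). Without TBI 1 the nominally lower ones were 3, and without sham 3 the median was -0.22. Ncoa4, which delivers ferritin to lysosomes, was at 653, 923, 683 and 489.8 FPKM in sham 1 to 4 and 224, 431, 235 and 208 FPKM in TBI 1 to 4, lower in every TBI library (-1.35 ± 0.27). The iron exporter Slc40a1, ferroportin, was at 22.2 ± 3.93 FPKM (SD, n = 4) across sham and 11.3 ± 3.63 across TBI libraries (-0.99 ± 0.25). Fth1, the ferritin heavy chain, was at 3359, 3653, 2506 and 2889 FPKM in sham 1 to 4 and 1343, 2223, 2702 and 2560.1 FPKM in TBI 1 to 4, with TBI 3 and 4 inside the sham range (-0.53 ± 0.29). Of 37 glutathione, thioredoxin and peroxide defence genes 35 were lower, 17 nominally, with a median of -0.31 (-0.21 without TBI 1) and of -0.13 after quantile normalization. Nominally lower were 33.3% of the iron list and 45.9% of the peroxide defence list, against 12.5% of all rows. By level the share was 31.1% of genes of 50 to 100 FPKM and 47.5% of those of 100 to 1000 FPKM. Glutathione peroxidase, Gpx1, was at 2990.1, 3057, 3104 and 2739 FPKM in sham 1 to 4 and 1168, 1959, 2298 and 1753 FPKM in TBI 1 to 4 (-0.77 ± 0.25). Peroxiredoxin 2, Prdx2, abundant in red cells, was at 2122 ± 506 FPKM (SD, n = 4) across sham and 1204 ± 434 across TBI libraries, overlapping (-0.87 ± 0.32). Gclm, which helps to make glutathione, was at 332 ± 39.9 FPKM across sham and 170.1 ± 53.7 across TBI libraries (-1.02 ± 0.25), and glutathione reductase, Gsr, at 63.2 ± 8.60 FPKM across sham and 43.5 ± 5.44 across TBI libraries (-0.53 ± 0.13). The red cell sums given above were lower in the same libraries, and their part in these differences was not tested.

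Energy metabolism genes leaned lower by less. Of 26 glycolysis genes 19 were lower, 10 nominally (38.5%), and 1 was nominally higher, with a median of -0.22 (-0.18 without TBI 1, -0.09 after quantile normalization). Aldolase A, Aldoa, which splits the hexose, was at 192 ± 24.6 FPKM (SD, n = 4) across sham and 134 ± 11.02 across TBI libraries (-0.52 ± 0.12), and the lactate carrier Slc16a1 at 17.0 ± 2.52 FPKM across sham and 9.96 ± 1.04 across TBI libraries (-0.74 ± 0.12). Of 70 genes for the respiratory chain and ATP synthase 60 were lower, 20 nominally (28.6%), with a median of -0.15 (-0.16 without TBI 1) that became 0.02 after quantile normalization. For comparison, 12.5% of all rows were nominally lower. Among all genes of 50 to 100 FPKM 31.1% were, with a median of -0.15. Cox6a1 of complex IV stood at 618 ± 67.8 FPKM across sham and 418 ± 90.2 across TBI libraries (-0.59 ± 0.19), and Ndufb11 of complex I at 94.7 ± 4.07 FPKM across sham and 71.4 ± 6.95 across TBI libraries (-0.41 ± 0.09). Of 70 cytosolic ribosomal protein genes 52 were lower, 3 nominally (4.29%), with a median of -0.11 (-0.06 without TBI 1), which quantile normalization turned to 0.16.

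Genes for degradation included several with separated groups. Of 33 autophagy genes 27 were lower, 13 nominally, with a median of -0.29 (-0.17 without TBI 1). Bnip3l, the receptor that clears mitochondria from reticulocytes, was at 1183, 1821, 1571 and 1407 FPKM in sham 1 to 4 and 475, 1172, 1139 and 987 FPKM in TBI 1 to 4 (-0.73 ± 0.31). The ubiquitin ligase subunit Fbxo7 was at 105 ± 14.4 FPKM (SD, n = 4) across sham and 59.6 ± 11.7 across TBI libraries (-0.82 ± 0.16). Of 40 lysosome genes 28 were lower, 10 nominally, among them the protease cathepsin D, Ctsd (515 ± 53.2 FPKM across sham and 293 ± 102 across TBI libraries, -0.89 ± 0.27), and cathepsin B, Ctsb (-0.52). Of 44 proteasome genes 35 were lower, 9 nominally, and of 24 ubiquitin-conjugating enzymes 19, 7 of them nominally. Nominally lower shares were 39.4% for autophagy, 25% for lysosome, 20.5% for proteasome and 29.2% for ubiquitin-conjugating genes. All rows had 12.5%. Genes of 20 to 50 FPKM had 16.8%, those of 50 to 100 FPKM 31.1% and those of 100 to 1000 FPKM 47.5%. The proteasome inhibitor Psmf1 (-0.95) and the conjugating enzyme Ube2b (-0.62) had separated groups. After quantile normalization the autophagy median was -0.07, and the lysosome and proteasome medians, -0.13 and -0.09 as deposited, were 0.06 and 0.04. Eif2ak1, the kinase that slows translation when heme is scarce, was at 86.1, 91.8, 117 and 83.6 FPKM in sham 1 to 4 and 32.8, 60.3, 58.6 and 38.7 FPKM in TBI 1 to 4 (-1.02 ± 0.21). Its groups were apart, with TBI 1 and 4 lowest.

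Interferon-stimulated genes varied between libraries in both groups. These antiviral genes are switched on together by type I interferon. Of 35 tested, 27 were lower in TBI and 8 higher, 6 nominally lower (17.1% against 12.5% of all rows). The median was -0.23 (-0.20 without TBI 1), and it ran from -0.35 (without TBI 2) to -0.07 (without sham 2) when each library was left out. Ifit1, which binds viral RNA, was at 431, 284, 190.1 and 414 FPKM in sham 1 to 4 and 51.6, 132, 128 and 2.58 FPKM in TBI 1 to 4. All TBI values were below the lowest sham value, and TBI 4 was far below the other TBI libraries. Its difference was the most negative of the 230 genes that the naming rule took (-2.95 ± 1.11, limma adjusted p = 0.194). Rsad2 (viperin), the most abundant of the list, was at 1674, 2537, 1645 and 1599 FPKM in sham 1 to 4 and 521, 1367, 1418 and 708 FPKM in TBI 1 to 4 (-0.99 ± 0.36), highest in sham 2. Cmpk2, a mitochondrial nucleotide kinase, was at 105, 104, 68.5 and 87.8 FPKM in sham 1 to 4 and 23.5, 51.0, 51.5 and 31.3 FPKM in TBI 1 to 4 (-1.26 ± 0.27). Irf7, the factor that amplifies the response, was at 332, 816, 201 and 596 FPKM in sham 1 to 4 and 129.5, 243, 239 and 93.0 FPKM in TBI 1 to 4. It ranged widely within sham, and sham 3 lay below TBI 2 and 3 (-1.38 ± 0.48). Ifi35 was at 36.1 ± 5.77 FPKM (SD, n = 4) across sham and 27.4 ± 1.29 across TBI libraries with separated groups (-0.38 ± 0.12).

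**Figure D4:**
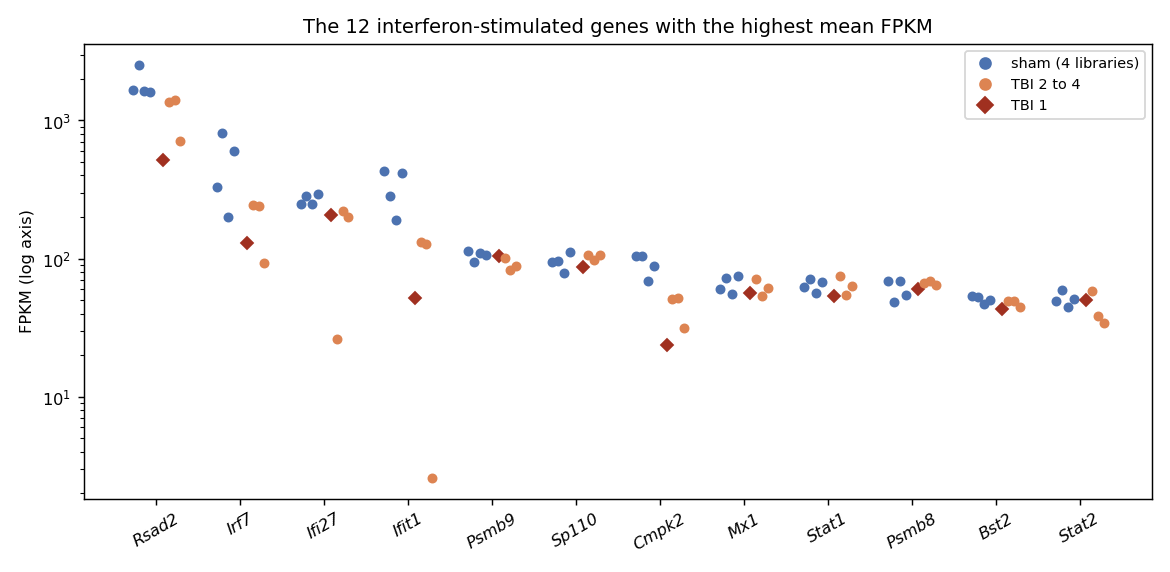
FPKM (log axis) of the 12 most abundant interferon-stimulated genes in each library. Rsad2, Ifit1 and Cmpk2 are lower in all 4 TBI libraries, with Ifit1 in TBI 4 at 2.58 FPKM, and the groups overlap in Irf7.

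Antigen presentation genes split. Of 35 tested 15 were higher, 4 nominally (11.4% against 7.82% of all rows), and 20 lower, 1 nominally (4 without TBI 1). The nominally lower gene was RT1-S3, a nonclassical class I gene, at 271, 371, 278 and 264 FPKM in sham 1 to 4 and 131, 208, 191 and 156 FPKM in TBI 1 to 4 (-0.79 ± 0.18). Its relative RT1-N3 was higher, at 21.3, 18.3, 18.7 and 19.5 FPKM in sham 1 to 4 and 28.7, 28.3, 22.7 and 24.3 FPKM in TBI 1 to 4 (0.40 ± 0.10). RT1-N2 was at 31.1, 10.5, 17.4 and 18.4 FPKM in sham 1 to 4 and 31.6, 33.5, 31.6 and 37.4 FPKM in TBI 1 to 4, with sham 1 just below the lowest TBI value (0.87 ± 0.27). The classical class I heavy chain RT1-A1 overlapped, at 1417, 3278, 1523 and 2563 FPKM in sham 1 to 4 and 1402, 1490.2, 1025 and 1228 FPKM in TBI 1 to 4 (-0.70 ± 0.31), and its light chain B2m stood at 4386 ± 702 FPKM across sham and 3125 ± 927 across TBI libraries (-0.54 ± 0.32). The rat class I genes are a family of similar sequences, so the split of fragments between them is uncertain.

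Inflammatory and stress hormone genes showed few differences. Of 15 interleukin-1 family and inflammasome genes none was nominally different. Il1b, which encodes interleukin-1 beta, stood at 39.1, 90.8, 33.8 and 72.4 FPKM in sham 1 to 4 and 26.3, 81.5, 40.9 and 46.1 FPKM in TBI 1 to 4, overlapping (-0.27 ± 0.41). Tnf, tumour necrosis factor, was at 162 ± 34.8 FPKM (SD, n = 4) across sham and 189.6 ± 10.98 across TBI libraries (0.25 ± 0.15). Of 33 genes of the NF-kB and immediate early response 1 was nominally higher, Jun, at 7.54 ± 2.10 FPKM across sham and 10.3 ± 0.686 across TBI libraries, overlapping (0.45 ± 0.16), which was not nominal without TBI 1, and 1 was nominally lower. Of 21 Toll-like receptor and adaptor genes 15 were lower, 2 nominally (9.52% against 12.5% of all rows), among them the kinase Irak1 (87.7 ± 13.7 FPKM across sham and 54.0 ± 10.96 across TBI libraries, -0.71 ± 0.18). The glucocorticoid receptor Nr3c1, which senses the stress hormone corticosterone in rats, was at 17.7, 15.6, 18.1 and 17.3 FPKM in sham 1 to 4 and 18.3, 18.0, 17.3 and 15.2 FPKM in TBI 1 to 4, with a difference of 0.000 ± 0.08. Its target Fkbp5, a chaperone that dampens the receptor, was at 9.16, 9.94, 9.85 and 13.05 FPKM in sham 1 to 4 and 11.2, 11.6, 13.2 and 15.8 FPKM in TBI 1 to 4, overlapping (0.29 ± 0.14). Of 21 genes of that pathway 12 were higher and 9 lower, with 1 nominal call in each direction.

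Clock genes leaned higher in number but had as many nominal calls in either direction. Of 17 tested 12 were higher (3 nominally) and 5 lower (3 nominally), with a median of 0.19. Nominal calls were 17.6% each way, against 7.82% higher and 12.5% lower over all rows. The lower genes were 29.4% of this list, against 37.8% of all genes of 2 to 5 FPKM and 47.3% of those of 10 to 20 FPKM. Without TBI 1 the median was 0.15, with 4 nominally higher and 1 nominally lower. Dbp, a transcription factor driven by the clock, was at 9.26, 7.51, 9.69 and 8.73 FPKM in sham 1 to 4 and 11.9, 10.9, 10.3 and 11.7 FPKM in TBI 1 to 4 (0.33 ± 0.09). The repressor Per2 was at 1.72, 1.86, 1.92 and 1.68 FPKM in sham 1 to 4 and 1.97, 2.47, 2.23 and 2.42 FPKM in TBI 1 to 4 (0.27 ± 0.12). Both had separated groups by a small margin. Csnk1d, a kinase that marks the period proteins for degradation, was lower, at 46.2 ± 2.51 FPKM across sham and 38.9 ± 2.43 across TBI libraries (-0.25 ± 0.07). Blood was taken at a time of day that the labels do not state.

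Among genes higher in TBI with the smallest p was Mir874, the locus of a microRNA, at 2.43, 2.21, 1.69 and 1.85 FPKM in sham 1 to 4 and 4.14, 3.61, 3.66 and 3.79 FPKM in TBI 1 to 4, with every TBI value above every sham value (0.77 ± 0.12, limma adjusted p = 0.127). Poly-A libraries read the long transcript of that locus and not the mature microRNA. RefSeq (GRCr8) gives the mature forms that such a transcript can yield, shown with the seed, bases 2 to 8, in capitals to identify the locus.
rno-miR-874-5p: cGGCCCCAcgcaccaggguaa
rno-miR-874-3p: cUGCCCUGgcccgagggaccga

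KIFC2, a kinesin motor, was at 1.95, 1.99, 1.91 and 2.13 FPKM in sham 1 to 4 and 3.31, 2.96, 3.41 and 3.18 FPKM in TBI 1 to 4 (0.57 ± 0.10). Mrpl22, a protein of the mitochondrial ribosome, was at 11.1, 11.8, 11.4 and 11.4 FPKM in sham 1 to 4 and 14.3, 15.1, 15.1 and 14.2 FPKM in TBI 1 to 4 (0.35 ± 0.06), in a list with 31 of 63 genes higher. Prpf4b, a kinase of the spliceosome, was at 30.1, 29.2, 29.4 and 30.6 FPKM in sham 1 to 4 and 38.8, 35.4, 40.6 and 40.5 FPKM in TBI 1 to 4 (0.37 ± 0.07). Rcbtb1 was at 37.7, 40.7, 42.5 and 42.9 FPKM in sham 1 to 4 and 56.5, 62.1, 49.8 and 70.1 FPKM in TBI 1 to 4, with a wide TBI range (0.53 ± 0.11). None of these genes overlapped between groups.

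The telomere protein Terf1 stood at 8.14 ± 0.897 FPKM (SD, n = 4) across sham and 11.01 ± 0.344 across TBI libraries (0.42 ± 0.09), and Mat2a, which makes the methyl donor S-adenosylmethionine, at 17.7 ± 0.854 FPKM across sham and 22.2 ± 1.01 across TBI libraries (0.31 ± 0.07). The other genes of the 15 were Prdm4 (0.37), Fkbp14 (0.50), Tmem161a (0.38), the repressor Etv3 (0.29), Rnf215 (0.38), Trmt13 (0.37), the polarity protein Scrib (0.32) and Slc14a1. Of the 8 largest positive differences, Adamts14, a procollagen protease, was at 3.70, 2.86, 2.28 and 3.58 FPKM in sham 1 to 4 and 11.1, 3.86, 3.87 and 6.43 FPKM in TBI 1 to 4, high in TBI 1 (0.81 ± 0.32). Abcd4, a vitamin B12 transporter of the lysosome, was at 4.45 ± 1.04 FPKM (SD, n = 4) across sham and 7.22 ± 0.649 across TBI libraries (0.66 ± 0.15). The DNA repair gene Fancc was at 1.75 ± 0.527 FPKM across sham and 3.11 ± 0.689 across TBI libraries (0.70 ± 0.22) and RGD1307603 at 1.47 ± 0.591 FPKM across sham and 2.86 ± 0.991 across TBI libraries (0.78 ± 0.30).

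Zinc finger genes were mostly higher by small amounts. Of 132 numbered ones, many of them DNA-binding regulators, 103 were higher and 29 lower, 23 nominally higher (17.4% against 7.82%) and 4 nominally lower, and the median was 0.09 (0.09 without TBI 1). That median ran from 0.08 to 0.12 with each library left out, and without TBI 1 the nominally higher genes were 12. Zfp467 stood at 4.21, 4.49, 5.06 and 4.14 FPKM in sham 1 to 4 and 5.83, 5.81, 5.67 and 6.47 FPKM in TBI 1 to 4 (0.38 ± 0.09) and Zfp846 at 2.32 ± 0.273 FPKM across sham and 3.34 ± 0.212 across TBI libraries (0.45 ± 0.11). For comparison, all genes of 2 to 5 FPKM had a median of 0.07, with 10.2% nominally higher and 37.8% lower. Of 69 splicing genes 36 were higher and 33 lower, but all 11 nominal calls were higher (15.9%), among them Luc7l3, at 16.5 ± 2.48 FPKM (SD, n = 4) across sham and 22.6 ± 1.83 across TBI libraries (0.45 ± 0.11). Of 44 histone modifying enzymes 31 were higher, 4 nominally (9.09% against 7.82%), and 13 lower, 3 nominally (6.82% against 12.5%). Both shares were near or below those of all rows. The demethylase Kdm1a was at 15.7 ± 0.607 FPKM across sham and 18.2 ± 0.832 across TBI libraries (0.21 ± 0.06). The DNA methyltransferase Dnmt3a was at 8.85 ± 0.362 FPKM across sham and 10.2 ± 0.632 across TBI libraries (0.19 ± 0.07).

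Of 30 cell division genes 21 were lower, 7 nominally (23.3% against 12.5% of all rows, and 4 genes without TBI 1). The thymidylate synthase Tyms was at 7.79, 8.69, 8.87 and 10.8 FPKM in sham 1 to 4 and 2.19, 5.59, 4.02 and 3.31 FPKM in TBI 1 to 4 (-1.21 ± 0.23). The thymidine kinase Tk1 was at 153 ± 44.6 FPKM (SD, n = 4) across sham and 82.5 ± 21.8 across TBI libraries, overlapping (-0.88 ± 0.26). Gadd45a, a stress-induced growth arrest gene, stood at 79.3 ± 7.03 FPKM across sham and 42.1 ± 11.5 across TBI libraries (-0.94 ± 0.19). The Hippo kinase Stk4 was at 94.7 ± 9.95 FPKM across sham and 65.9 ± 6.71 across TBI libraries (-0.52 ± 0.11), and Stat6, which relays interleukin-4, at 68.8 ± 5.63 FPKM across sham and 52.1 ± 5.49 across TBI libraries (-0.40 ± 0.10). The complement shields Cd55 (-0.63) and Cd59 (-0.75), which protect blood cells, were both lower. Of 27 integrin, selectin and adhesion genes 18 were lower, 7 nominally (25.9%), with a median of -0.16 that was 0.01 after quantile normalization. Among them were Itgb1 (204 ± 23.6 FPKM across sham and 129 ± 31.3 across TBI libraries, -0.68 ± 0.19) and talin, Tln1 (149 ± 2.16 FPKM across sham and 106 ± 17.3 across TBI libraries, -0.51 ± 0.12). The chemokine Cxcl5 was at 4.61 ± 1.05 FPKM across sham and 2.12 ± 0.800 across TBI libraries (-0.998 ± 0.24). In lipid genes the exporter Abcg1 was higher (20.4 ± 2.75 FPKM across sham and 27.1 ± 2.06 across TBI libraries, 0.41 ± 0.10) and the synthesis enzyme Fdps lower (39.5 ± 5.202 FPKM across sham and 27.0 ± 3.26 across TBI libraries, -0.54 ± 0.12). The vesicle GTPase Rab7l1 was higher, at 48.7 ± 5.49 FPKM across sham and 63.8 ± 4.43 across TBI libraries (0.39 ± 0.10), while 31 of 41 Rab genes were lower, 11 nominally (26.8%). The Rab median of -0.08 was -0.04 after quantile normalization. For comparison, 16.8% of all genes of 20 to 50 FPKM and 31.1% of those of 50 to 100 FPKM were nominally lower.

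**Figure D5:**
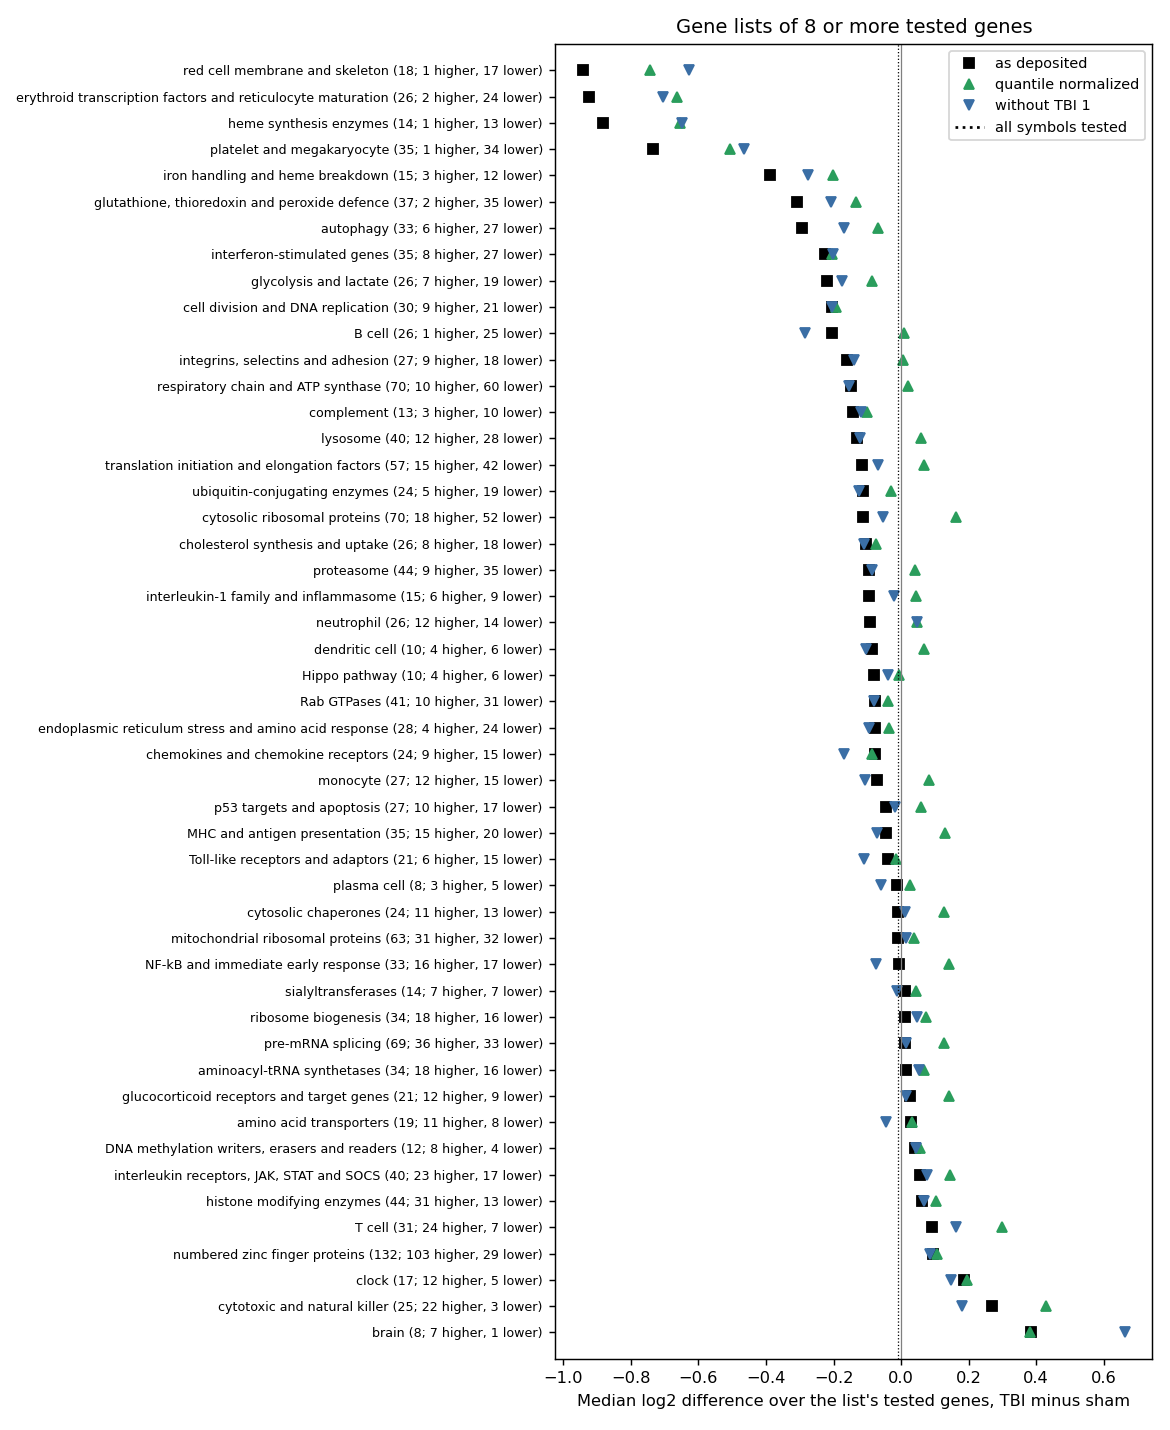
Median log2 difference (TBI minus sham) over the tested genes of each list of 8 or more, as deposited, after quantile normalization and without TBI 1. The red cell and platelet lists lie at -0.94 to -0.74 and reach no higher than -0.46 in any of the 3 versions, while the list of ribosomal proteins changes sign with the scaling (-0.11 and 0.16).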

How the data were processed

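Poly-A RNA from 8 white blood cell samples (4 sham, 4 TBI) was sequenced on a HiSeq 2500, per the labels' protocols. The authors deposited FPKM per row with a quantification status; TopHat, TopHat2, Bowtie, Bowtie2, Cufflinks, Cuffdiff and the rat build rn5 are named in the submitters' processing notes. Tool versions, the gene annotation and the library scaling were not given in the sources used here. No read counts were used, the absolute depth of each library is unknown, and counting intervals were left out.

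Rows with status OK in all 8 libraries and a mean of at least 1 FPKM were fitted as log2(FPKM + 0.5) with limma 3.58.1 in R 4.3.3 (lmFit, eBayes with trend, all 8 libraries, no covariate), with Benjamini-Hochberg adjustment over 13413 rows. The step was tested on simulated data of 13413 rows, and at an adjusted p of 0.05 it recovered 6, 12, 58 and 86% of rows changed by 0.3, 0.5, 1 and 2 on the log2 scale. It also called 7 unchanged rows. The simulated rows were drawn independently of each other, so these rates may not carry over to the data. For list counts a symbol with several rows was represented by its most abundant row.

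Named genes were those of a rule: per direction, the 15 smallest p with groups apart and the 8 largest differences among rows with groups apart, a p under 0.05 and a mean of at least 2 FPKM; per list, the 2 highest levels and 2 smallest p; the 10 most abundant; and 17 preset genes. Not all 230 are described. The comparison, the gene lists and the rule were chosen with earlier results of these data known. Promoter windows and microRNA sequences come from RefSeq tables of GRCr8. Alternatives tried were pseudocounts of 0.1 and 1, no minimum and a minimum of 5 FPKM, median-ratio and quantile scaling, limma without trend, with robust variances or sample weights, a replicate block, rows of every status, single-symbol rows, and leaving out each library. Figures used matplotlib 3.10.9.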

Additional observations from a re-analysis of the deposited data

Results flagged for a closer look

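In 358 groups of 4 libraries (genes in the text and list sums, sham and TBI apart) 18 had 1 library far from the other 3 by Dixon's criterion. Chance flags about 1 in 20 groups. Sham 2 stood above the other sham libraries in Rhd (774 FPKM), Mkrn1 (1964), Cxcl5 (6.17), Rsad2 (2537), RT1-S3 (371) and the adhesion list sum (2614), and below them in Fancc (0.967 FPKM). TBI 1 stood below the other TBI libraries in Fech (279 FPKM) and the sum of translation factors (3029.9), and above them in Prdm4 (9.94) and Dnmt3a (11.1). TBI 2 stood above the others in Prss35 (1.58 FPKM), Ncoa4 (431) and the sum of histone modifying enzymes (776). TBI 4 stood above them in Rab7l1 (70.4 FPKM). Sham 1 was high in the sum of NF-kB and immediate early genes (2491 FPKM) and low in the sums of plasma cell genes (65.9) and of interleukin receptor and JAK-STAT genes (1249). No cause was tested.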

How the results depend on the processing

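Of 2565 values of the 129 genes in the text under 20 alternatives, 2558 kept their direction. The exceptions were Csf1r (0.014) and Cd79b (0.11) under quantile normalization, and Nr3c1 at -0.015 with sample weights and from -0.045 to 0.056 when 1 library was left out. The count of rows past an adjusted p of 0.05 in limma was 0 as reported, with 2727 rows past an unadjusted p of 0.05. It was 2 with rows of every status (1 globin row listed at 0 in sham and 1 unnamed locus), and 0 to 4 with 1 library left out. Without TBI 2 the 4 rows were Furin, Prss35 and 2 unnamed loci, and without sham 2 it was 1 unnamed locus. The nominally higher rows numbered 1574 with no minimum mean and 643 with a minimum of 5 FPKM, because other rows were tested. Higher rows with separated groups numbered 467 with that minimum, 1137 after quantile normalization and 959 to 1298 with 1 library left out, where fewer libraries have to be apart. Lower ones numbered 688 after quantile normalization. The platelet median was -0.51 after quantile normalization and -0.87 to -0.46 with 1 library left out, and the red cell median -0.68 and -1.04 to -0.64, the highest value without TBI 1 in both. Of 50 lists with 8 or more genes, 21 kept the sign of their median in all alternatives and 17 of the other 29 changed it under quantile normalization. The causes were not tested.

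Same-numbered sham and TBI libraries were not shown to be paired: the correlations of their deviations were 0.147, -0.005, 0.022 and -0.008. With the number as a replicate block 0 rows passed after adjustment, and 917 higher and 1717 lower rows were nominal. The absolute depth is unknown, and 4 libraries a group limit what could be detected among low rows.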
